A study of Mus musculus with 6 samples.

Results

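Collagens and laminins are large families of trimeric proteins that give the extracellular matrix its fibrils and its basement membranes. Their chains were taken from the deposited count table as the symbols made of Col, a type number, the letter a and a chain number, or of Lama, Lamb or Lamc and a number. This pattern matched 56 of 30438 symbols. Of these, 55 are chains, 44 of collagen and 11 of laminin, and the other is Col4a3bp, which encodes a ceramide transfer protein that binds a type IV collagen chain and is no collagen. Col4a3bp was at 88.4 ± 9.13 CPM (counts scaled to a common library size) in the control and 81.4 ± 7.94 in the other group (SD, n = 3 each, adjusted p = 0.703) and is left out of the counts below.

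RNA had been sequenced from poly(A)-selected libraries of HEI-OC1, a conditionally immortalised line from the mouse organ of Corti, often used to study drugs that harm hearing. The control group was HEI-OC1 with the genotype given as WT, and the other group was HEI-OC1 with the genotype given as Nrf2 knockout, 3 libraries each, with no drug in the labels. Both were grown at 33 °C in 10% CO2 in DMEM with 10% FBS, and the labels do not give the edit, the number of clones or whether replicates were separate cultures, so the spread behind each p-value may be technical. The 2 groups are called control and KO-labelled below, and KO stands for Nrf2 KO. The submitters ask which genes could account for a stronger cisplatin resistance of the knockout cells.

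The libraries held 29130007 to 51285343 counts, with the lowest total in KO replicate 1. Nfe2l2, which encodes Nrf2, was at 74.2, 126.5 and 96.7 CPM in the controls and at 395.7, 235.6 and 204.5 CPM in the KO-labelled ones, against the label (counts alone do not check an edit under which the mRNA is still made). Replicate 1 of the KO-labelled group stood apart from replicates 2 and 3, with a chi-square per degree of freedom of 482 and 422 over genes, against 15.3 between replicates 2 and 3. Control replicate 1 stood apart as well, at 158 and 71.4 against 24.5 between control replicates 2 and 3. The labels call the cells cochlear stem cells, and of 12 prosensory or stem markers Sox2, Pax2 and Isl1 had 0 counts in every library while Jag1 and Eya1 were present. Of the 7 tested on that list 3 were higher in the KO-labelled group and 0 lower, against 4.83% and 3.45% of all tested genes. These were Sox9, 4.56-fold (adjusted p = 0.00810), Gata3, 4.36-fold (0.0438), and Bmp4, 2.38-fold (0.0147). KO replicate 1 was the highest library for each. With a library left out, their calls held in 4, 1 and 2 of 6 fits. The list summed to 394 to 449 CPM in the controls and 531 to 654 CPM in the KO-labelled ones. Of 8 hair cell markers Atoh1 and Slc26a5 had 0 counts in every library. Of the 2 tested Myo7a was higher, from 1.32 ± 0.207 to 20.3 ± 8.35 CPM (log2 change 3.95, SE 0.36, adjusted p = 0.00348). Myo6, the other, overlapped between the groups, at 37.3 ± 6.25 and 48.3 ± 14.6 CPM (adjusted p = 0.460). Espn, not tested, lay lower, with 4, 6 and 12 counts in the controls and 0, 2 and 4 in the KO-labelled ones. Pou4f3, Gfi1 and Otof had at most 4 counts in a library. The list summed to 33.1 to 45.2 and 62.5 to 76.5 CPM, most of it Myo6. Fibroblast and otic mesenchyme markers summed to 6456 to 7560 CPM in the controls and 5145 to 6080 CPM in the KO-labelled ones, mostly Vim, with 2 of 7 tested higher (Pdgfra and Thy1) and 0 lower. Smooth muscle or pericyte markers summed to 58.9 to 61.8 and 37.0 to 56.4 CPM, with Des and Mcam lower among 4 tested, Rgs5 at 0 and none higher. With a library left out, the calls of Des and Mcam held in 2 and 1 of 6 fits. Acta2, not tested on all 6 libraries, had 4, 2 and 0 counts in the controls and 2, 31 and 33 in the KO-labelled ones. It was called higher by edgeR without KO replicate 1 (adjusted p = 0.00897). Chondrocyte markers summed to 10.1 to 14.5 and 7.29 to 7.88 CPM, with Sox5 higher and Matn1 lower among 4 tested and Acan at 0. Endothelial (0.924 to 3.04 CPM) and epithelial markers (0.0407 to 0.438 CPM) were near 0 in all 6 libraries. The part of any of these in the results was not tested.

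Each collagen is a trimer of alpha chains wound around each other along stretches where glycine recurs at a fixed spacing. Fibrillar types (I, II, III, V, XI, XXIV and XXVII) build the banded fibrils of connective tissue, type IV and the laminins build basement membranes, type VI forms beaded filaments, and other types decorate fibrils, anchor membranes or span the cell membrane. A laminin joins an alpha, a beta and a gamma chain and is the first layer that cells bind through integrins. In the cochlea, type II collagen with types IX and XI fills the tectorial membrane, and type IV and laminin chains line the basilar membrane and the vessels of the stria vascularis.

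Of the 55 chains, 32 had enough counts to be tested with edgeR. In the KO-labelled libraries 9 were higher and 1 was lower by edgeR's quasi-likelihood test at an adjusted p under 0.05, and 22 did not pass. Over all 14618 tested genes 4.83% were called higher and 3.45% lower, against 28.1% and 3.12% of the tested chains. The median log2 fold change of the tested chains was 1.13, with 28 of 32 positive, and that of all tested genes was 0.04, with 53.6% positive. Without overlap between the groups, 20 chains lay above and 2 below the control, shares of 62.5% and 6.25%, against 17.1% of all tested genes in each direction. A filter that a chain can pass through the higher group alone favours chains that differ, so these shares describe the 32 that passed and not the 55. Among the chains called higher were Col1a1, Col1a2, Col5a1, Col11a1, Col6a1, Col6a3, Col8a1 and Lama4, and the chain called lower was Col18a1.

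The count depended on the libraries used. With the replicate number as a block (the replicate-block fit) 16 chains were higher and 1 lower (10.4% and 7.92% of all genes), and without KO replicate 1 these were 19 and 2 (15.6% and 14.5%). With both replicate 1 libraries left out, a fit added after the data were seen, there were 23 and 2 (24% and 22.1%). DESeq2 called 19 higher and 2 lower (8.25% and 6.43%). Leaving out control replicate 1, 2 or 3 gave 3, 4 and 2 higher (1.4%, 1.37% and 0.925%). Leaving out KO replicate 2 or 3 gave 5 each (1.79% and 1.82%), and Col18a1 was lower in each of these 5 fits. Col1a2 and Col18a1 were among the chains that passed in each of the 6 leave-one-out fits.

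**Figure D1:**
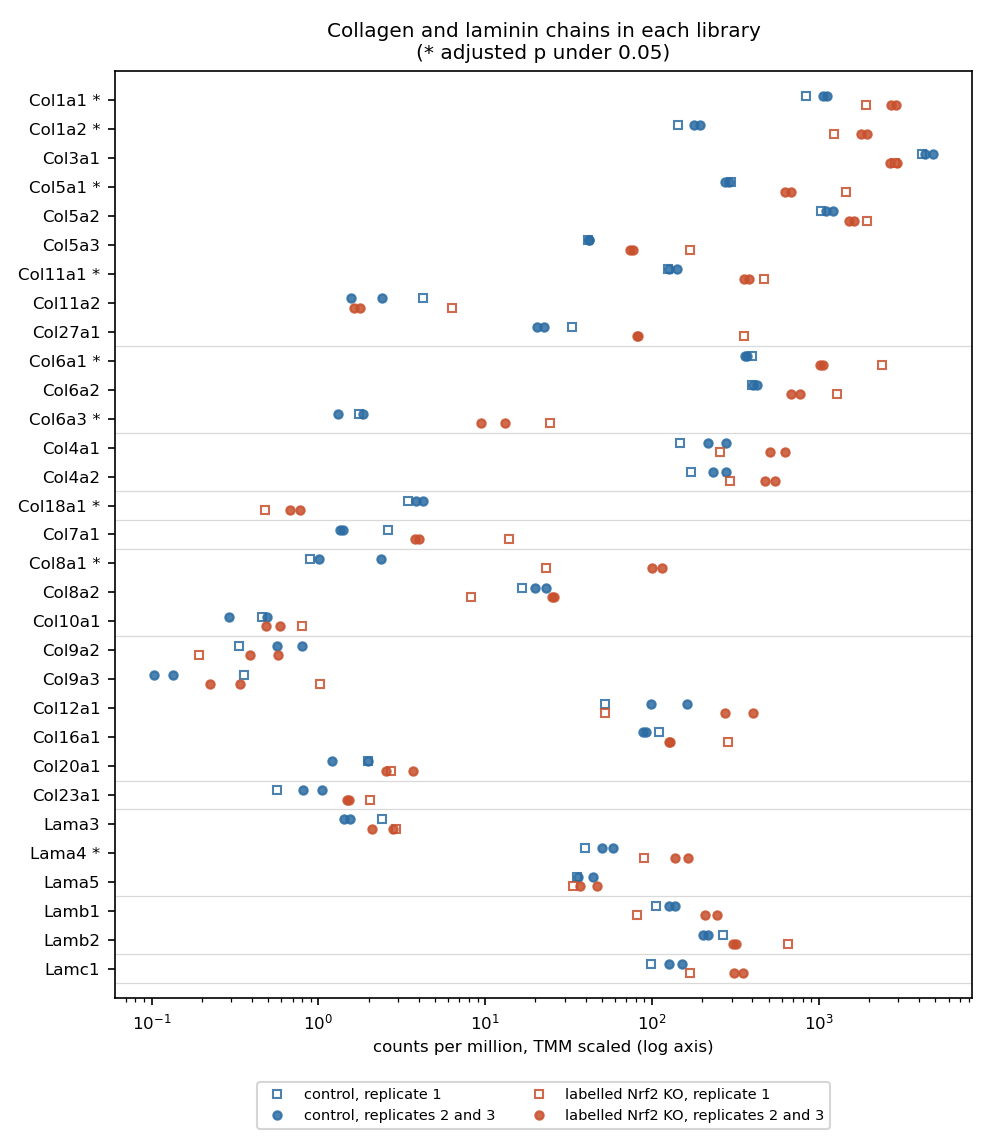
CPM of the tested chains described here (log axis) in the 3 control libraries (blue) and the 3 KO-labelled libraries (red), with replicate 1 as open squares, classes set apart by grey lines and an asterisk at an adjusted p under 0.05. The groups do not overlap for most of them, and KO replicate 1 often lies away from replicates 2 and 3.

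The 250 bases before the RefSeq start (GRCm38.p6) are given for chains picked by the size and direction of their change. These are Col1a2, which rose most among the abundant chains, Col8a1, which had the largest fold change, and Col18a1, which was called lower. The Col1a2 window is chr6:4505368-4505617 on the plus strand, that of Col8a1 chr16:57754738-57754987 on the minus strand and that of Col18a1 chr10:77166531-77166780 on the minus strand, the upstream start of 2 in the table. Capitals mark CCAAT in either orientation, the CCAAT box bound by NF-Y.
Col1a2: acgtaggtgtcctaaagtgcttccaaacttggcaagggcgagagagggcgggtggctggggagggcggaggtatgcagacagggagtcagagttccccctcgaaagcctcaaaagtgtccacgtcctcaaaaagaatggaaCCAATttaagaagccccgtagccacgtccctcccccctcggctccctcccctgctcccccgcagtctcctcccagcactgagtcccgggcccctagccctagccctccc
Col8a1: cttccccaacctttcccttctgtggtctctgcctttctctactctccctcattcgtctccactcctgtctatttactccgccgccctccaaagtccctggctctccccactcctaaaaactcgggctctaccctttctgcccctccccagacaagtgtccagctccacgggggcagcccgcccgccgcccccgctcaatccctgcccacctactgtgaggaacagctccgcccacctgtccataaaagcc
Col18a1: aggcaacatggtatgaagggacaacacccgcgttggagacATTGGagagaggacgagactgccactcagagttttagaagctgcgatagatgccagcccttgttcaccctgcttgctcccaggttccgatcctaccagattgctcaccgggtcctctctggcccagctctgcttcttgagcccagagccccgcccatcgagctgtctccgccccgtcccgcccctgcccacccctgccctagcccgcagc

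The CCAAT match of Col1a2 lay 109 to 105 bases before the start and that of Col18a1 210 to 206 bases before it. RefSeq windows were found for 40 of the 55 chains, with 44 starts. Counting both strands, CCAAT was present at 14 of the 44 starts (31.8%, against 33.8% of 32851 windows of all genes), and the TATA box TATAAA at 5 (11.4% against 12.4%). The AP-1 site TGANTCA was found at 1 start, that of Col6a1 (2.27% against 6.75%). The core of the antioxidant response element that NRF2 binds, TGACNNNGC, was found at 6 (13.6% against 10.2%), before Col24a1, Col4a2, Col6a2, Col6a5, Col7a1 and Col9a2. The last 2 motifs can overlap, since some letters match both. None of the 3 windows printed held the letters of the TATA, AP-1 or antioxidant response motifs, and a match or its absence says nothing of whether a factor binds.

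Fibrillar collagens were the most abundant class. Of 11 fibrillar chains 9 were tested, of which 4 were higher and 0 lower, against 4.83% and 3.45% of all tested genes. In the replicate-block fit 6 were higher and 0 lower (10.4% and 7.92% of all genes). Without KO replicate 1 these were 7 and 1 (15.6% and 14.5%). The median log2 fold change of the tested fibrillar chains was 1.35. Type I collagen, the main fibril of skin, bone and tendon, is a trimer of a pair of Col1a1 products with a single Col1a2 product. Both chains rose, Col1a2 by far more.

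Col1a2 was at 143, 194 and 178 CPM in the controls and 1240, 1936 and 1791 CPM in the KO-labelled ones. All 3 KO-labelled libraries lay far above the control, and replicate 1 was the lowest library of each group. In log2 this was a change of 3.27 (SE 0.27, adjusted p = 0.00261), a fold of 9.65, and it lay between 3.14 and 3.44 with any 1 library left out. Col1a1 was at 841, 1113 and 1052 CPM in the controls and 1927, 2918 and 2725 CPM in the KO-labelled libraries. The groups did not overlap, and replicate 1 was the lowest library of each group. Its log2 change was 1.33 (SE 0.25, adjusted p = 0.0256). The call of Col1a1 was lost without control replicate 1, 2 or 3 or KO replicate 2 or 3 (adjusted p from 0.0941 to 0.153).

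The ratio of the chains within a library was steadier than either chain. There were 0.170, 0.174 and 0.169 Col1a2 counts for each Col1a1 count in the controls and 0.643, 0.664 and 0.657 in the KO-labelled ones. Replicate 1 of each group, which was low for both chains, gave a ratio close to those of the other replicates of its group. The mean log2 ratio was -2.55 ± 0.02 and -0.61 ± 0.02 (SD, n = 3 each), a difference of 1.94 with an exact two-sided permutation p of 0.10, the smallest that 3 against 3 libraries can give (0.16 adjusted over 8 pairs, as for each other pair below with a p of 0.10). Per length, the authors' deposited table gives FPKM (fragments scaled to transcript length and library size) of 142 for Col1a1 and 31.8 for Col1a2 in the control group and 353 and 303 in the KO-labelled group, ratios of 0.224 and 0.859.

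Type III collagen, a trimer of Col3a1 products alone that is found with type I in soft tissue, was lower, without passing edgeR's test on all 6 libraries. Col3a1 was at 4179, 4837 and 4340.1 CPM in the controls and 2874, 2928 and 2660.3 CPM in the KO-labelled ones. All 3 of the latter lay below the control, and replicate 1 lay between the other replicates of its group. The fitted log2 change came to -0.66 (SE 0.19, 95% interval -1.12 to -0.20, adjusted p = 0.0920), and the adjusted p was 0.0211 without KO replicate 1. DESeq2 on all 6 libraries gave the same size with an adjusted p of 0.000419. Col3a1 was the most abundant chain per length in both groups of the authors' deposited table, with FPKM of 773 and 485. Its neighbour in mouse gene order, Col5a2, had a log2 fold change of the opposite sign.

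As a share of all collagen and laminin counts, type III made up 48.9%, 48.0% and 47.4% in the controls and 17.8%, 18.96% and 18.9% in the KO-labelled ones. Type I made up 11.5%, 12.96% and 13.4% against 19.6%, 31.4% and 32.1%. Type VI made up 7.78% to 9.32% in the control and 22.98%, 11.9% and 12.2% in the KO-labelled libraries, highest in replicate 1. The type III share was thus alike in all 3 libraries of a group, while the type I and type VI shares of replicate 1 of the KO-labelled group differed from those of replicates 2 and 3. All chains together took 0.866%, 1.02% and 0.911% of the counts of the control libraries and 1.73%, 1.48% and 1.3403% of the KO-labelled ones. In bulk RNA, a change in the number of cells that make a chain and a change in its RNA per cell cannot be told apart.

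**Figure D2:**
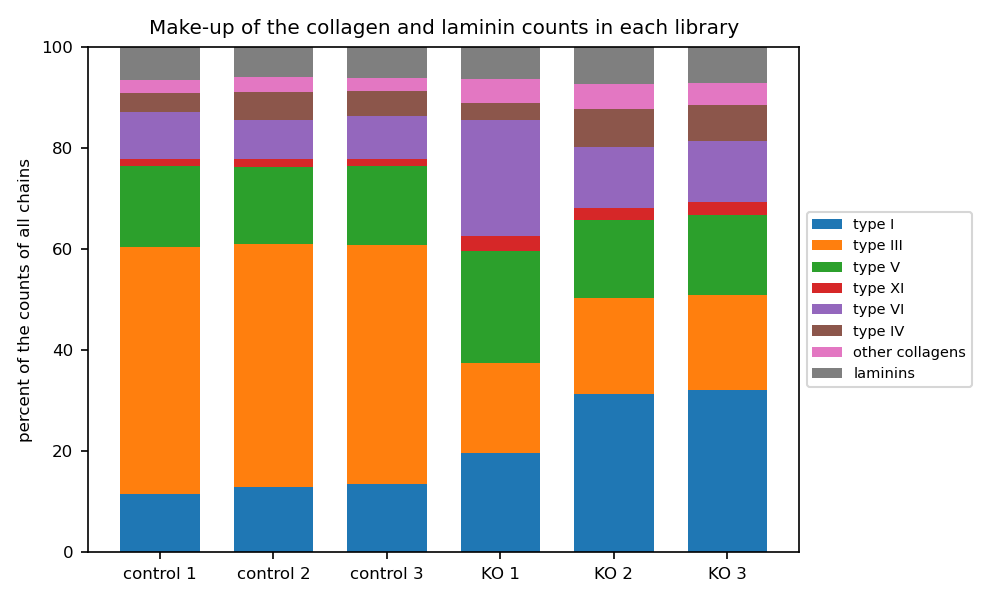
Share of collagen and laminin counts taken by each collagen type and by the laminins, in percent of the counts of all 55 chains, for each library. Type III takes 47.4% to 48.9% in the controls and 17.8% to 18.96% in the KO-labelled ones. Type I takes 11.5% to 13.4% in the controls and 19.6% to 32.1% in the KO-labelled ones. In KO replicate 1 types V and VI take more than type I, at 22.1% and 22.98%.

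Types V and XI are minor fibrillar collagens that sit within type I fibrils, start their assembly and limit their width. Col5a1 was at 296, 290.4 and 273 CPM in the controls and 1452, 678 and 627 CPM in the KO-labelled libraries. KO replicate 1 was at more than 2 times replicates 2 and 3, which themselves lay above all control libraries. The log2 fold change of Col5a1 was 1.68 (SE 0.36, adjusted p = 0.0422), and 1.18 without KO replicate 1 (adjusted p = 0.00133). The call was lost with upper-quartile scaling (0.0525), with library size alone (0.0562) and without any of the other 5 libraries (0.0677 to 0.197). Col11a1, the type XI chain that can join type V trimers, was at 124, 141 and 127 CPM in the controls and 469, 379 and 357 CPM in the KO-labelled libraries. Its libraries were close within each group, with a log2 change of 1.62 (SE 0.18, adjusted p = 0.00539). That call was lost without control replicate 3 (adjusted p = 0.0615).

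The other type V chains did not pass edgeR's test with all 6 libraries, but both passed DESeq2's. Col5a3 was at 41.5, 41.7 and 41.6 CPM in the controls and 168, 77.0 and 74.0 CPM in the KO-labelled libraries, with a log2 fold change of 1.35 (SE 0.34, adjusted p = 0.0668, 0.0408 in the replicate-block fit, 0.00178 without KO replicate 1 and 0.00353 by DESeq2). Col5a2, the most abundant type V chain, was at 1028, 1223 and 1109.8 CPM against 1947, 1616 and 1522 CPM, without overlap. The fit gave a log2 change of 0.60 (SE 0.20, adjusted p = 0.123, 0.0441 without KO replicate 1 and 0.0153 by DESeq2). There were 3.48, 4.21 and 4.06 Col5a2 counts for each Col5a1 count in the control and 1.341, 2.38 and 2.43 in the KO-labelled libraries, a difference of -0.98 in the mean log2 ratio (exact two-sided permutation p = 0.10). The Col11a1 to Col5a1 ratio overlapped between the groups, with a difference of 0.04 (exact two-sided permutation p = 1).

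Col27a1, a fibrillar chain of cartilage named after its values were seen, showed the largest excess of KO replicate 1 over replicates 2 and 3 among the tested chains. It was at 33.0, 20.5 and 22.6 CPM in the controls and 354.7, 80.9 and 81.8 CPM in the KO-labelled libraries. Replicate 1 was the highest library of both groups. The change on the log2 scale was 2.77 (SE 0.67, adjusted p = 0.0576) with all libraries, and 1.68 without KO replicate 1 (adjusted p = 0.00290). It passed in the replicate-block fit (0.0176), by DESeq2 (7.81e-05) and with no filter on low counts (0.0490). The remaining tested fibrillar chain, Col11a2, had 1.57 to 4.26 CPM in the controls and 1.63 to 6.35 CPM in the KO-labelled libraries. Col2a1, the cartilage and tectorial membrane chain, had 0 to 4 counts in the controls and 7 to 15 in the others and was not tested, and Col24a1 had 0 counts in all.

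Type VI collagen forms beaded filaments around cells and is assembled from alpha-1, alpha-2 and one longer chain. Of its 6 chains 3 were tested, and all 3 lay above the control without overlap (17.1% of all tested genes). Of these 2 were called higher (4.83% of all genes). All 3 were called higher in the replicate-block fit or without KO replicate 1 (10.4% and 15.6% of all genes). In each of these 3 chains KO replicate 1 was the highest of the 6 libraries, as it was for 32.7% of all tested genes.

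Col6a1 was at 398, 359 and 370.2 CPM in the controls and 2393, 1058 and 1022 CPM in the KO-labelled libraries. In log2 this was a change of 1.99 (SE 0.38, adjusted p = 0.0292) and 1.47 without KO replicate 1 (adjusted p = 0.000752). The call was lost without any of the other 5 libraries (0.0557 to 0.155). Col6a2, which lies next to Col6a1 in mouse gene order, was at 397, 424 and 402 CPM in the controls and 1288, 767 and 685 CPM in the KO-labelled libraries. Its log2 change was 1.16 (SE 0.28), with an adjusted p of 0.0572 by edgeR, 0.0386 in the replicate-block fit, 0.0479 by limma-voom and 0.00146 by DESeq2. The counts of Col6a2 for each Col6a1 count went from 0.997, 1.18 and 1.09 to 0.538, 0.725 and 0.670, a difference of -0.76 in the mean log2 ratio (exact two-sided permutation p = 0.10).

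Col6a3, the main long chain of type VI, was low in both groups. It was at 1.76, 1.84 and 1.31 CPM in the controls and 24.3, 13.1 and 9.43 CPM in the KO-labelled libraries, with no overlap. The fitted log2 change came to 3.25 (SE 0.42, adjusted p = 0.00872), and the call was lost without control replicate 1, 2 or 3 (0.0552 to 0.0660). Per length, the authors' deposited table gives FPKM of 0.122 and 1.20 for Col6a3, against 76.7 and 306 for Col6a1 in the same groups. Of the other long chains, Col6a5 had 0 counts in every control library and 13, 12 and 3 in the KO-labelled ones, and Col6a4 and Col6a6 had at most 8 counts in a library. None of these 3 passed the count filter of the edgeR fit, and DESeq2, run without that filter, called Col6a5 higher.

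Type IV collagen forms the network of basement membranes. Of its 6 chains Col4a1 and Col4a2, which build the network found in most tissues, were tested, and neither passed edgeR's test without a block on all 6 libraries, while both passed in the replicate-block fit and by DESeq2 (adjusted p of 0.0435 and 0.0288). Col4a1 was at 147, 279 and 216 CPM in the controls and 257, 626 and 512 CPM in the KO-labelled libraries. Here replicate 1 was the lowest library of each group, and KO replicate 1 fell within the range of the control. The fit gave a log2 change of 1.12 (SE 0.39, adjusted p = 0.146, 0.0159 in the replicate-block fit and 0.0116 without KO replicate 1). Col4a2 was at 172, 276 and 233 CPM against 294, 549 and 475 CPM, a log2 fold change of 0.95 (SE 0.30, adjusted p = 0.113, 0.0162 and 0.0101 in the same fits).

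By their RefSeq starts both genes lie head to head and overlap at their first bases, where reads without a stated strand cannot be assigned to either gene. The Col4a2 to Col4a1 count ratio was 1.17, 0.990 and 1.08 in the control and 1.14, 0.877 and 0.928 in the KO-labelled libraries. These ratios overlapped (difference of -0.14 in log2, exact two-sided permutation p = 0.30, a test that does not use the replicate numbers), and the KO-labelled ratio was the lower one at each of the 3 replicate numbers. Col4a3 and Col4a4, chains of the network of the cochlea and the glomerulus that is lost in Alport syndrome, had at most 6 counts in a library, their partner Col4a5 had 0 and Col4a6 at most 11.

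Col18a1, a basement membrane collagen whose end fragment is known as endostatin, was the chain called lower by edgeR on all 6 libraries. It was at 3.45, 3.87 and 4.23 CPM in the controls and 0.479, 0.672 and 0.778 CPM in the KO-labelled libraries, from 135 to 172 and 15 to 33 counts. The groups lay far apart, with a log2 change of -2.57 (SE 0.28, adjusted p = 0.00533), between -2.72 and -2.41 with any 1 library left out. Gene counts do not separate its 2 RefSeq starts. Its relative Col15a1 had at most 2 counts in a library.

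Col8a1, a short-chain collagen of vessel walls and of the membrane behind the cornea, had the largest fold change of the tested chains. It had 35, 105 and 39 counts in the controls and 722, 5634 and 4119 in the KO-labelled ones, or 0.893, 2.36 and 1.01 CPM against 23.05, 114.7 and 100.1 CPM. All 3 KO-labelled libraries lay above the control, with replicate 1 the lowest of them. The change on the log2 scale was 5.79 (SE 0.79, 95% interval 3.88 to 7.71, adjusted p = 0.0110), and the call was lost without control replicate 1 or 3 (adjusted p of 0.0668 to 0.0783). Its partner chain Col8a2 was at 16.6, 23.1 and 19.8 CPM in the controls and 8.27, 25.8 and 25.2 CPM in the KO-labelled libraries, on both sides of the control. The interval of its log2 fold change ran from -1.05 to 1.04 (adjusted p = 0.997). In FPKM of the authors' deposited table, Col8a1 was below Col8a2 in the control (0.411 and 3.82) and above it in the KO-labelled group (23.4 and 3.72).

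**Figure D3:**
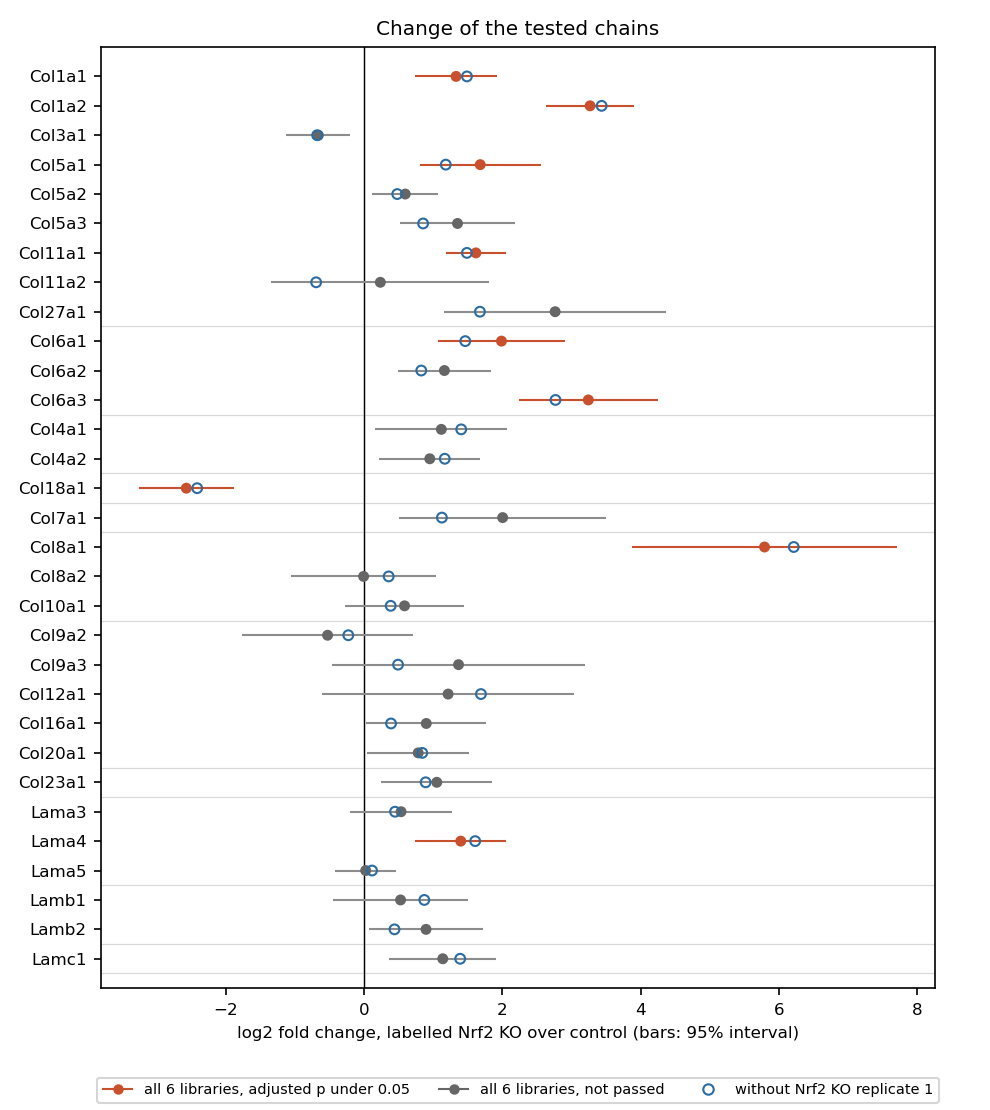
Log2 fold change of the tested chains described here, KO-labelled libraries over control, with its 95% interval (red where the adjusted p was under 0.05) and the value without KO replicate 1 (open circles). Among the called chains shown Col8a1, Col1a2 and Col6a3 lie farthest to the right and Col18a1 to the left, and Col3a1 lies below 0.

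Among collagens that bind to the surface of fibrils, called FACIT collagens, 5 of 9 chains were tested and 0 were called by edgeR. In the replicate-block fit 0 were called, and 1 was higher without KO replicate 1 (15.6% of all genes). Col12a1, found on fibrils of tendon and ligament, was at 52.3, 162 and 99.1 CPM in the controls and 52.1, 403 and 274 CPM in the KO-labelled libraries. KO replicates 2 and 3 were the highest libraries, while replicate 1 was at the level of control replicate 1. In log2 this was a change of 1.22 (SE 0.75, adjusted p = 0.389), and 1.69 without KO replicate 1 (0.0305). Col16a1 was at 109, 88.0 and 91.7 CPM against 286, 128 and 126 CPM, with replicate 1 the highest of each group (log2 fold change 0.90, SE 0.36, adjusted p = 0.185). Col9a2, Col9a3 and Col20a1 lay between 0.103 and 3.67 CPM in every library.

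Col7a1, which forms the fibrils that anchor epithelia to the dermis, was at 2.63, 1.39 and 1.341 CPM in the controls and 13.8, 4.01 and 3.82 CPM in the KO-labelled libraries. Its log2 change was 2.01 (SE 0.62, adjusted p = 0.107, 0.0159 in the replicate-block fit, 0.0425 without KO replicate 1 and 0.00732 by DESeq2). Of the 4 transmembrane collagens Col23a1 was tested, at 0.561 to 1.06 CPM in the controls and 1.49 to 2.04 CPM in the KO-labelled libraries (log2 fold change 1.05, SE 0.33, adjusted p = 0.111, and 0.0478 by DESeq2). The 23 chains that did not pass the count filter of the edgeR fit, 19 of collagen and 4 of laminin, had at most 15 counts in any library. Of them 6 had 0 counts in all libraries (Col4a5, Col9a1, Col19a1, Col24a1, Col25a1 and Col26a1).

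Of the 11 laminin chains 7 were tested. Alpha chains set which cells a laminin binds. Lama4, the alpha chain of vessel and mesenchymal basement membranes, was at 39.6, 58.1 and 50.4 CPM in the controls and 89.1, 165 and 137 CPM in the KO-labelled libraries. The groups did not overlap and replicate 1 was the lowest of each. The fitted log2 change came to 1.40 (SE 0.27, adjusted p = 0.0308), and the call was lost without any library but KO replicate 1 (0.0965 to 0.159).

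Lama5, the broadly expressed alpha chain of mature basement membranes, was at 35.4, 44.0 and 35.9 CPM in the controls and 33.8, 46.6 and 36.9 CPM in the KO-labelled libraries. The groups overlapped in full, with a 95% interval of the log2 fold change of -0.42 to 0.47 (adjusted p = 0.955). The Lama5 to Lama4 count ratio went from 0.894, 0.757 and 0.712 to 0.379, 0.283 and 0.269, a difference of -1.35 in the mean log2 ratio (exact two-sided permutation p = 0.10). Lama3, the epithelial alpha chain, had 1.42 to 2.40 CPM in the controls and 2.09 to 2.90 CPM in the other libraries (adjusted p = 0.345). Lama1, of early embryonic membranes, had at most 6 counts in a library, and Lama2, of muscle and nerve, at most 4.

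Neither tested beta chain passed. Lamb1 was at 106, 138 and 126 CPM in the controls and 81.2, 244 and 209 CPM in the KO-labelled libraries, with replicate 1 the lowest of each group and the lowest of all in the latter. The fit gave a log2 change of 0.53 (SE 0.40, adjusted p = 0.485), and 0.87 without KO replicate 1 (0.00851). Lamb2, the beta chain of the neuromuscular junction and the glomerulus, was at 267, 203 and 216 CPM against 655, 317 and 306 CPM, with replicate 1 the highest of each group (log2 fold change 0.90, SE 0.34, adjusted p = 0.172). The Lamb2 to Lamb1 count ratio was 2.51, 1.47 and 1.71 in the control and 8.06, 1.30 and 1.46 in the KO-labelled libraries. The ratio of KO replicate 1 lay far from the other 5, so that the difference in mean log2 ratio was 0.42 with it and -0.42 without it (exact two-sided permutation p = 1 and 0.20).

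Lamc1, the gamma chain of most laminins, was at 98.6, 152 and 126 CPM in the controls and 169, 349 and 311 CPM in the KO-labelled libraries, without overlap. The change on the log2 scale was 1.14 (SE 0.32, adjusted p = 0.0843, 0.0160 in the replicate-block fit, 0.00408 without KO replicate 1 and 0.0103 by DESeq2).

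**Figure D4:**
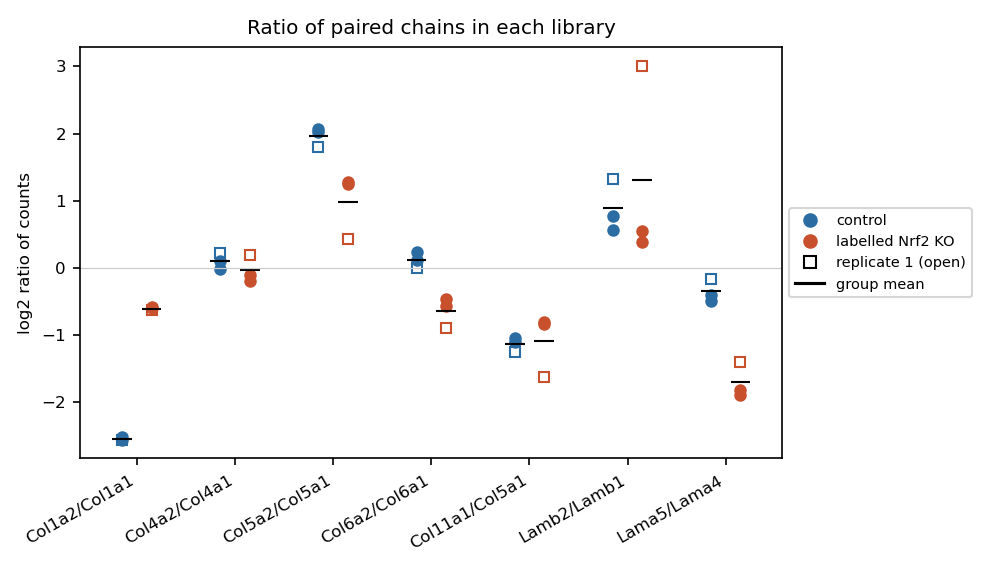
Log2 ratio of the counts of paired chains in each library, control in blue and labelled Nrf2 KO in red, with replicate 1 as open squares and the group means as black bars. The Col1a2 to Col1a1 ratio is tight within each group and 1.94 apart on the log2 scale, and the Lamb2 to Lamb1 ratio of KO replicate 1 stands away from the other 5 libraries.

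Replicate 1 divided the chains in a way that was shared by both groups. In the KO-labelled libraries, replicate 1 was at least 2-fold above the mean of replicates 2 and 3 for 10 of the 32 tested chains, among them Col27a1 (4.36 times), Col6a1 (2.30 times), Col5a1 (2.23 times) and Lamb2 (2.10 times). It was at least 2-fold below for 6, among them Col12a1 (0.154 times), Col8a1 (0.215 times), Lamb1 (0.358 times) and Col4a1 (0.452 times). In the control group these limits were met by 2 and 2 chains, and for 25 of the 32 chains replicate 1 deviated to the same side in both groups. How many of all genes met these limits or shared a side was not counted. Deviations from the group mean correlated at 0.830 between control replicate 1 and KO replicate 1, so these counts are not given as a trait of the chains. KO replicate 1 was the highest of the 6 libraries for 16 chains and the lowest for 6, or 50.0% and 18.8%, against 32.7% and 32.7% of all tested genes. The sources used here do not say what the replicate number marks.

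The genes that make, anchor and bind these chains included genes called in each direction. Of 55 genes listed for assembly, basement membrane partners and receptors 54 were in the table and 47 were tested, of which 6 were higher and 5 lower, with a median log2 fold change of 0.21. Of all tested genes 4.83% were higher and 3.45% lower. The list had 10 higher and 8 lower in the replicate-block fit (10.4% and 7.92% of all genes) and 15 and 9 without KO replicate 1 (15.6% and 14.5%). Among 27 tested assembly genes 3 were higher and 3 lower, and most of these encode lysyl oxidases, which crosslink collagen and elastin. Loxl2 rose from 39.6 ± 2.94 to 135.3 ± 43.5 CPM (log2 change 1.77, SE 0.25, adjusted p = 0.0120) and Loxl3 from 34.4 ± 3.43 to 73.9 ± 6.37 CPM (1.10, SE 0.15, 0.00986). Loxl4 fell from 14.6 ± 1.42 to 3.39 ± 0.533 CPM (-2.11, SE 0.21, 0.00380) and Loxl1 from 9.955 ± 0.367 to 2.93 ± 0.344 CPM (-1.76, SE 0.20, 0.00533). The calls of Loxl2 and Loxl3 were lost in 3 and 4 of the 6 fits with a library left out (adjusted p up to 0.0853 and 0.0944), that of Loxl1 without control replicate 3 (0.0539), and that of Loxl4 in none.

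The other assembly calls, named after their values were seen, were Adamts2 and Plod1. Adamts2, the enzyme that removes the amino-terminal propeptide of types I, II and III, was at 9.93, 7.83 and 7.32 CPM in the controls and 0.862, 0.0815 and 0.267 CPM in the KO-labelled libraries. It was lower in all 3 of the latter (log2 fold change -4.43, SE 0.76, adjusted p = 0.0217), and its call was lost in 4 fits with a library left out (0.0866 to 0.0960). Plod1, a lysyl hydroxylase, rose from 49.1 ± 3.73 to 79.9 ± 11.5 CPM (0.70, SE 0.16, adjusted p = 0.0497), a call lost in 5 such fits (0.138 to 0.246) and with no filter on low counts (0.0861). Serpinh1, the collagen chaperone of the endoplasmic reticulum, was at 1342 ± 125 and 1267 ± 290 CPM (adjusted p = 0.877).

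Of 7 tested basement membrane partners Nid2 (nidogen-2, which links laminin to type IV collagen) was higher, at 11.3 ± 0.134 and 23.9 ± 1.02 CPM (log2 fold change 1.08, SE 0.14, adjusted p = 0.00851), and Smoc1 was lower (-0.71, SE 0.15, adjusted p = 0.0397). Nid1, the paralogue of Nid2, was at 99.0 ± 13.98 and 35.5 ± 17.5 CPM, below the control without overlap. It did not pass edgeR's test on all 6 libraries (adjusted p = 0.0873, 0.0243 in the replicate-block fit and 0.00384 without KO replicate 1). Of 7 tested collagen receptors Itga11, an integrin chain that binds type I collagen, was lower, from 2.80 ± 0.465 to 1.22 ± 0.138 CPM (-1.20, SE 0.26, adjusted p = 0.0385). Of 6 tested laminin receptors Itga3 rose from 97.8 ± 6.45 to 249 ± 30.9 CPM (1.35, SE 0.16, adjusted p = 0.00730) and Itga6 from 67.7 ± 6.01 to 151 ± 14.9 CPM (1.16, SE 0.15, adjusted p = 0.00888). With a library left out, Nid2 lost its call in 4 of 6 fits (adjusted p up to 0.0881), Smoc1 and Itga11 in 5 (up to 0.199 and 0.155), Itga3 in 2 (up to 0.0772) and Itga6 in 3 (up to 0.0853).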

How the data were processed

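The deposited table holds whole-number counts per gene symbol for 6 libraries. The submitters' processing notes name fastp, FastQC, HISAT2, DESeq2 1.34.0 and the build hg18. For the counting step, its strand and its annotation, nothing was found in the sources used here. The symbols follow rat usage (650 begin with RGD, 40 with RT1) although the cells are mouse, so levels compared between genes are uncertain. The authors' deposited FPKM are 1 value per group. There were 0 columns of other samples.

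The test was edgeR 4.0.16 (R 4.3.3) on genes kept by filterByExpr (minimum count 10, total 15), TMM scaling, robust quasi-likelihood fit by group, Benjamini-Hochberg adjustment over 14618 genes, threshold 0.05. CPM are TMM scaled and given as mean ± SD. DESeq2 1.42.0 and limma 3.58.1 (voom) were alternatives. Chain ratios used counts plus 0.5 with an exact permutation test over libraries. Promoters and gene order came from RefSeq (GRCm38.p6), to which 55 of 55 chains matched by symbol.

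No 2 libraries agreed within sampling noise (smallest chi-square per degree of freedom 15.3). Deviations from the group mean correlated at 0.830, 0.808 and 0.562 between libraries of the same number, all above 0.1 in each case. Unmatched numbers passed this limit too, at 0.632 (control 2, KO 3) and 0.478 (control 3, KO 2), the former above the matched 0.562. Replicate 1 of either group correlated negatively with replicates 2 and 3 of the other. The measure therefore sets replicate 1 apart but cannot decide how replicates 2 and 3 pair. The replicate-block fit takes equal numbers as pairs, which no label states. The fit was tested on simulated data for this comparison (14423 genes). Of genes changed 4-fold 64 of 100 were recovered, and of those changed 2-fold 4 of 100. Of 14228 unchanged genes 5 were called. Far fewer genes were changed there than were called in the data (706 higher and 505 lower). The simulated libraries also lacked the deviation shared by replicate 1 of both groups. These rates therefore do not give the power of the real fit, and a gene that was not called may still have changed.

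Members and lists were chosen with earlier results of these data known. Named with values were the called chains, except 1 that is not reported here, the tested chains of types I, III, IV, V and VI and of laminin, the 2 most abundant of each other class, and up to 4 called genes by p in each group of the pathway list. Col27a1, Adamts2, Plod1, Serpinh1, Nid1 and the untested chains lie outside this rule.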

Additional observations from a re-analysis of the deposited data

How the results depend on the processing

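Over all genes 706 were called higher and 505 lower, against 1420 and 1107 by DESeq2, 1520 and 1158 with the replicate block, 3540 and 3253 with both replicate 1 libraries left out (chosen after seeing the data), and 139 to 2323 and 57 to 2162 with 1 library left out. Of the chains 9 were higher and 1 lower, against 19 and 2 by DESeq2, 16 and 1 with the replicate block, 23 and 2 with both replicate 1 libraries left out, and 2 to 19 and 1 to 2 with 1 library left out. All 10 chain calls were kept by DESeq2, limma-voom, the replicate block, both filters, and scaling by DESeq2 size factors or by TMM without the chains, and with KO replicate 1 or both replicate 1 libraries left out. Col5a1 was lost with the other 2 scalings. Of the assembly and receptor genes 6 were higher and 5 lower, against 10 higher by DESeq2, 10 and 8 with the replicate block, 3 lower with no filter, 23 and 14 with both replicate 1 libraries left out, and 0 to 15 and 1 to 9 with 1 library left out. Beyond the calls named in the report, the block changed no other chain call.

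Signs turned for chains near 0: Lama5 (-0.033 with upper-quartile scaling and -0.12 to 0.14 with 1 library left out), Col8a2 (0.25 with both replicate 1 libraries left out and -0.24 to 0.36 with 1 left out) and Col11a2 (-0.21 with both left out and -0.69 to 0.70 with 1 left out). With 1 library left out the Col11a1 to Col5a1 log2 ratio difference ran from -0.10 to 0.31 and that of Lamb2 to Lamb1 from -0.42 to 0.89. The causes were not tested. Low counts of 23 chains kept them out of the edgeR fit.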
